A study of Mus musculus with 2 samples.

Results

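Imprinted genes are expressed from the copy of one parent, and here 33 of them were followed in embryonic mouse tongue, in which the transcription factor gene Osr1 was or was not deleted in the neural crest lineage. The 33 genes were taken by symbol, and all 33 had rows in both deposited tables, 58 of 28107 transcript rows and 33 of 22072 gene symbols (0.15%). The mutant embryos were Osr1f/-; Wnt1cre, with a conditional allele over a null allele and a Cre driven by Wnt1 that acts in the neural crest lineage. The controls were Osr1f/+, with the conditional allele beside a wild-type allele and no Cre in the label. Both groups carried the conditional allele, were on a mixed background and were taken at embryonic day 12. In the mutant all cells carried the null allele, and cells outside the Wnt1cre lineage kept the conditional one. Tongue RNA was pooled, from 3 pairs of control and mutant samples by the design text, and sequenced as 1 library per genotype. No test between genotypes was possible, so each ratio compares 2 libraries.

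An imprint is DNA methylation laid down in the egg or sperm at a control region, which silences genes of a cluster on 1 parental chromosome for the life of the embryo. Many paternally expressed genes promote fetal growth and many maternally expressed genes restrain it, and both are abundant in embryonic mesoderm and mesenchyme and decline after birth. The tables hold no allele information, so "paternally expressed" and "maternally expressed" below are background knowledge and were not measured. By that knowledge 19 of the genes are paternally expressed and 12 maternally expressed. Gnas and Inpp5f were placed in neither class, because only some of their transcripts are imprinted.

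Depth, estimated from the deposited coverage, was about 23100000 mapped reads in the mutant library and 18900000 in the control library. Osr1 had 18.4 FPKM (fragments counted per transcript length and library depth) in the mutant library, against 56.8 FPKM in the control library. Its lower value is in the library labelled mutant. Markers of tongue mesenchyme and skeletal muscle were present in both libraries, with summed levels of 213 and 580 FPKM in the mutant, against 206 and 560 FPKM in the control, and none of these markers was at 0. By gene, 4 of 5 mesenchyme markers were higher in the mutant and 5 of 7 muscle markers lower. Epithelium markers were lower for 5 of 6 genes, with 68.5 FPKM summed in the mutant and 77.6 FPKM in the control, and endothelium markers higher for 3 of 4, with 52.0 FPKM summed in the mutant and 47.9 FPKM in the control. Cartilage markers were higher for 6 of 6 genes, with 241 FPKM summed in the mutant and 172 FPKM in the control, and erythroid markers lower for 5 of 5 measured genes, with 1072 FPKM summed in the mutant and 1314 FPKM in the control. Neuron markers were lower for 5 of 6 genes, with 23.0 FPKM summed in the mutant and 33.4 FPKM in the control, and none was at 0. Schwann lineage markers were lower for 4 of 4 measured genes, with 26.7 FPKM summed in the mutant and 36.0 FPKM in the control. In bulk tissue, fewer cells of a type and less RNA per cell cannot be told apart.

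Imprinted genes were among the most abundant RNAs of the tongue. H19, a long noncoding RNA, had 2308 FPKM in the mutant and 2390 FPKM in the control library and was the second most abundant symbol in both. Igf2, the fetal growth factor encoded beside it, had 1395 FPKM in the mutant and 1351 FPKM in the control and stood 4th. These levels and those of Gnas, Cdkn1c and Mest put 5 members among the 18 most abundant of all symbols in each library. The 33 genes together held 3.10% of all FPKM in the mutant and 3.19% in the control library, from 0.15% of the symbols. At least 100 FPKM was reached by 14 of the 33 members in each library (42.4%), compared with 1.91% of all symbols in the mutant and 1.93% in the control. At the other end, 30 members reached 1 FPKM in either library and were counted as measured, 90.9% of them against 56.1% of all symbols.

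**Figure D1:**
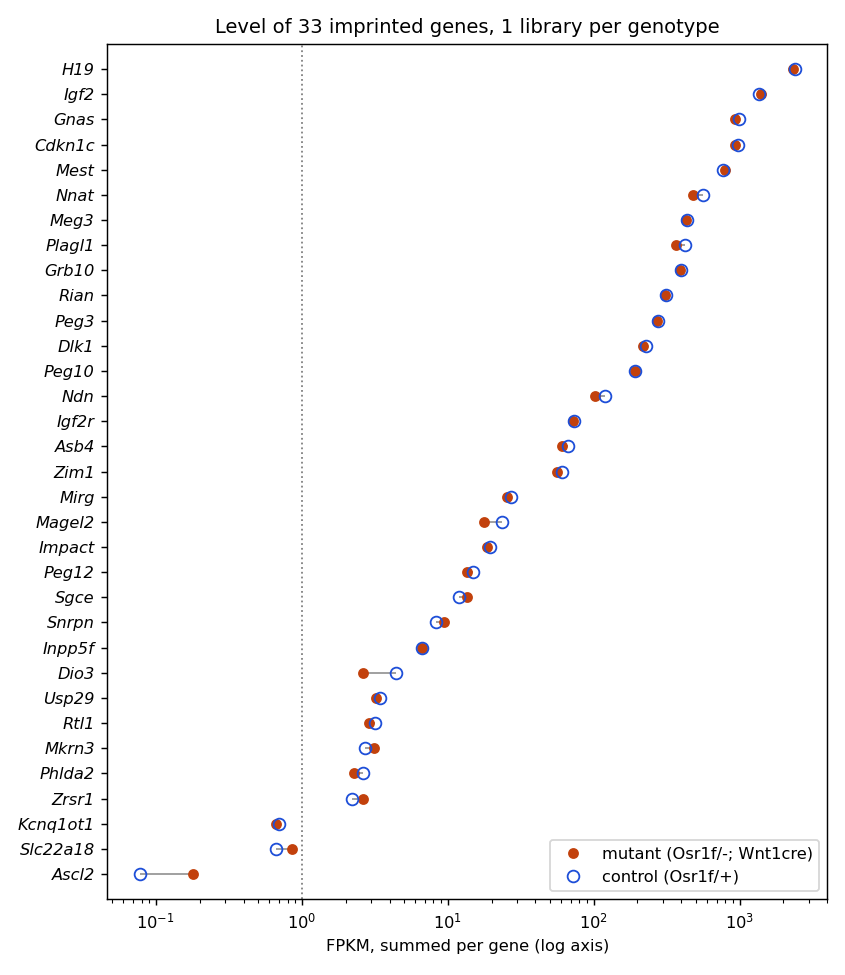
Level of each of the 33 imprinted genes in FPKM (log axis), with the mutant library as filled points and the control library as open points, 1 library each. The dotted line marks 1 FPKM, and the order of the genes is nearly the same in both libraries, with H19 and Igf2 at the top and Ascl2 at the bottom.

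The order of the members by level was almost the same in the 2 libraries. The 7 most abundant members stood in the same order, 22 of 33 had the same position, and no member moved by more than 3 positions. The median level of the 30 measured members was 66.4 FPKM in the mutant and 69.9 FPKM in the control, whereas that of all 12383 measured genes was 9.99 FPKM in the mutant and 9.91 FPKM in the control. Ascl2, a regulator of trophoblast, had 0.179 FPKM in the mutant and 0.0782 FPKM in the control, from about 7 reads in the mutant and 2 in the control. Its control value lay under the floor of 3 reads, 0.0987 FPKM for its length, so no difference was detectable at this depth. Slc22a18, a transporter-like gene, had 0.857 FPKM in the mutant and 0.667 FPKM in the control. Kcnq1ot1, the long noncoding RNA that silences its cluster, had 0.672 FPKM in the mutant and 0.697 FPKM in the control library. Because this RNA is 83437 nt long, these low levels rested on about 1295 reads in the mutant and 1097 in the control, and its ratio was 0.964 (0.889 to 1.05). Here and below the brackets hold the 95% counting interval of a ratio of mutant over control, computed from estimated reads. In genes with several rows it is centred on the ratio of summed reads, which can differ from the printed FPKM ratio. It covers counting error only, not the variation between embryos.

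As a group the imprinted genes were nearly level between the genotypes, with a slight shift to lower values in the mutant library. Fold changes past a threshold are taken on FPKM plus 1, where a fold of 1.2 was used. By this measure 0 of 30 measured members were higher by 1.2-fold, while 4.77% of all measured genes were. At least 1.2-fold lower were 2 of 30, Dio3 and Magel2, against 3.46% of all measured genes. The members just inside and outside this threshold were Magel2, with a log2 ratio of −0.39, and Nnat, with −0.23.

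Most of the small differences were toward lower values. Lower in the mutant by any amount were 23 of the 30 members, against 48.8% of all measured genes. With quantile normalization, which gives equal ranks equal values, 17 were lower, 9 higher and 4 level. By FPKM as deposited the median log2 ratio was −0.06 for the members and 0.0035 for all genes. Since abundant genes leaned the same way, the members with a mean of at least 50 FPKM were also set beside all genes with such a mean. Of these 17 members 15 were lower, against 58.5% of 1032 genes, with medians of −0.05 and −0.01. With quantile normalization Cdkn1c, Grb10, Igf2r, Peg10 and Gnas of these 17 turned higher, and H19, Igf2 and Mest were level. The rest of the 17 stayed lower, and the share of the 1032 genes was not recomputed on that scale. The counting interval lay below 1 for 10 of the 17 and above 1 for 2, where these 1032 genes gave 22.2% and 12.9%. Yet the 17 members were more abundant, with medians of 370 FPKM in the mutant and 395 FPKM in the control. Those of the 1032 genes were 82.3 FPKM in the mutant and 84.6 FPKM in the control. Over all measured members, the interval lay below 1 for 12 of 30 and above 1 for 2, against 10.2% and 10.7% of all measured genes. Higher levels give narrower intervals, so in neither comparison were these shares matched for level.

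**Figure D2:**
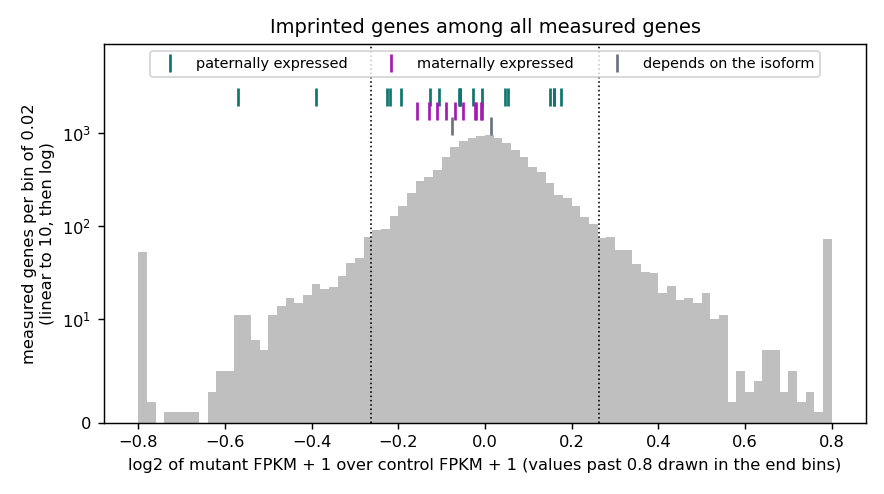
Distribution of log2 ratios (mutant FPKM plus 1 over control FPKM plus 1) over 12383 measured genes in bins of 0.02, with ticks for the 30 measured imprinted genes by parental class. Dotted lines mark 1.2-fold, and only Dio3 and Magel2 lie beyond the lower line while no member lies beyond the upper one.

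Paternally and maternally expressed genes had nearly the same median over all measured members. Their median log2 ratios were −0.06 over 18 measured paternally expressed and −0.06 over 10 measured maternally expressed genes, a difference of 0.0014. Over the members with no overlapping gene model, 16 in all, the medians were −0.06 and −0.11, a difference of 0.0513. All 10 measured maternally expressed genes were lower in the mutant library by small amounts, from −0.16 to −0.0066, except that with quantile normalization 6 were lower, 3 higher and 1 level, and with estimated reads 9 were lower. Of the 18 paternally expressed genes 12 were lower and 6 higher, and they ran from −0.57 to 0.18. The classes also differed in level, with a median of 18.3 FPKM in the mutant and 21.7 FPKM in the control for paternally expressed genes, and of 191 FPKM in the mutant and 194 FPKM in the control for maternally expressed genes. Both genes past 1.2-fold are paternally expressed. Summed over all listed genes, the paternally expressed genes came to 3917 FPKM in the mutant and 4018 FPKM in the control, and the maternally expressed genes to 4595 FPKM in the mutant and 4745 FPKM in the control.

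**Figure D3:**
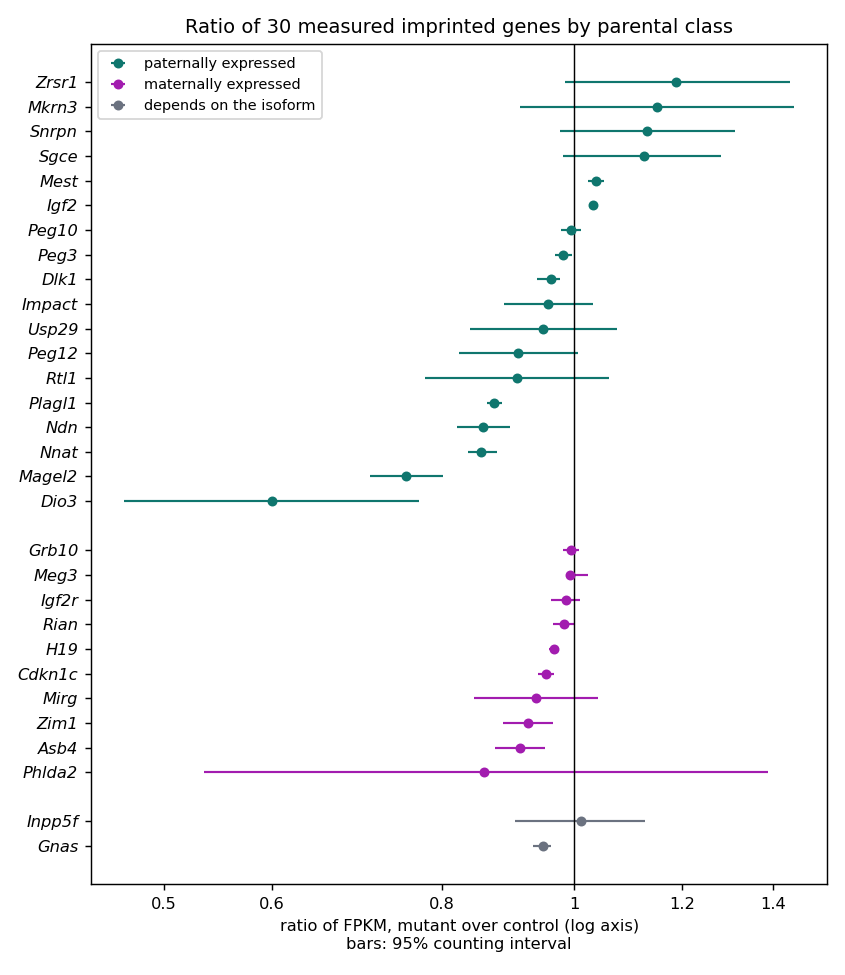
Ratio of FPKM, mutant over control (log axis), of the 30 measured imprinted genes with the 95% counting interval as a bar, grouped by parental class. Maternally expressed genes sit close to 1 and, in FPKM as deposited, slightly below it (6 of 10 with quantile normalization), while paternally expressed genes spread from 0.60 for Dio3 to 1.19 for Zrsr1.

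Genes that promote fetal growth were level or slightly apart. Igf2 (mm9, chr7:149836673-149846940) had a ratio of 1.03 (1.02 to 1.04), and Mest, which encodes a hydrolase-fold protein of mesoderm, had 801 FPKM in the mutant and 772 FPKM in the control, a ratio of 1.04 (1.02 to 1.05). These were the 2 members whose interval lay above 1. The EGF-repeat membrane protein gene Dlk1 stood at 219 FPKM in the mutant and 228 FPKM in the control, and its ratio was 0.961 (0.940 to 0.977). Peg3, a zinc finger protein, had 272 FPKM in the mutant and 277 FPKM in the control, with a ratio of 0.982 (0.968 to 0.996). For Peg10, derived from a retrotransposon, the levels were 192 FPKM in the mutant and 193 FPKM in the control, a ratio of 0.995 (0.978 to 1.01), and with quantile normalization its log2 ratio turned positive, to 0.03. Among these growth genes the largest difference was that of Plagl1, a zinc finger transcription factor of the imprinted gene network. Plagl1 (mm9, chr10:12810594-12851501) had 370 FPKM in the mutant and 423 FPKM in the control library, a ratio of 0.874 (0.862 to 0.886) from about 44912 reads in the mutant and 41959 in the control.

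Genes that restrain growth differed little between the libraries. Cdkn1c, which encodes the cyclin-dependent kinase inhibitor p57, had 936 FPKM in the mutant and 982 FPKM in the control, a ratio of 0.953 (0.940 to 0.967), but with quantile normalization its log2 ratio was 0.0099. Grb10, an adaptor that dampens insulin and IGF receptor signals, had 393 FPKM in the mutant and 395 FPKM in the control, a ratio of 0.995 (0.981 to 1.01). Igf2r, the receptor that carries IGF2 to lysosomes, had 72.2 FPKM in the mutant and 73.3 FPKM in the control, a ratio of 0.986 (0.962 to 1.01). The intervals of Grb10 and Igf2r included 1, and with quantile normalization the log2 ratios of both turned positive, to 0.03 and 0.0033. Phlda2, a brake on placental growth, had 2.27 FPKM in the mutant and 2.64 FPKM in the control from about 39 reads in the mutant and 37 in the control, and its interval of 0.535 to 1.39 could not show a difference of this size. H19 had a ratio of 0.966 (0.959 to 0.974), and Igf2 stood at 19.3 times the level of Igf2r in the mutant and 18.4 times in the control library, on the FPKM scale.

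The noncoding RNAs expressed from the maternal chromosome 12 were close to level. Meg3, a long noncoding RNA, had 430 FPKM in the mutant and 433 FPKM in the control, a ratio of 0.993 (0.990 to 1.02), while its ratio in estimated reads was 1.01. Rian, which hosts small nucleolar RNAs, had 309 FPKM in the mutant and 314 FPKM in the control, a ratio of 0.984 (0.966 to 1.002). Mirg, a microRNA host, had 25.5 FPKM in the mutant and 27.2 FPKM in the control, a ratio of 0.938 (0.844 to 1.04). The intervals of Meg3, Rian and Mirg all included 1. Rian stood at 0.718 of the level of Meg3 in the mutant and 0.725 in the control library.

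The members with the lowest log2 ratios were Dio3, Magel2, Nnat and Ndn, of which Nnat and Ndn did not pass 1.2-fold. Dio3, the deiodinase that inactivates thyroid hormone (mm9, chr12:111517440-111519307), had 2.65 FPKM in the mutant and 4.41 FPKM in the control library. The ratio was 0.60 (0.467 to 0.770), from about 114 reads in the mutant and 155 in the control. Magel2, a MAGE family protein of the Prader-Willi region (mm9, chr7:69521865-69526526), had 17.9 FPKM in the mutant and 23.8 FPKM in the control. Its ratio of 0.753 (0.708 to 0.802) rested on about 1926 reads in the mutant and 2088 in the control. Neither gene overlaps another model in the tables. Ndn, another MAGE family gene, had 103 FPKM in the mutant and 120 FPKM in the control, a ratio of 0.858 (0.820 to 0.897). Nnat, a small membrane protein of developing neurons and other tissues, had 477 FPKM in the mutant and 558 FPKM in the control, a ratio of 0.854 (0.835 to 0.877). Neuron and Schwann lineage markers were lower in the mutant library as well, with the values given above, and their part in these ratios was not tested.

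The promoter windows of the 2 members past 1.2-fold are shown to compare their CpG content, since imprints are written on CpG sites. The windows are from RefSeq on GRCm38.p6, a later build than the mm9 of the tables, and span 300 bases, most of them before the start, 5′ to 3′ on the gene's strand, with each CG in capitals.
Dio3 (chr12:110278980-110279279, plus strand): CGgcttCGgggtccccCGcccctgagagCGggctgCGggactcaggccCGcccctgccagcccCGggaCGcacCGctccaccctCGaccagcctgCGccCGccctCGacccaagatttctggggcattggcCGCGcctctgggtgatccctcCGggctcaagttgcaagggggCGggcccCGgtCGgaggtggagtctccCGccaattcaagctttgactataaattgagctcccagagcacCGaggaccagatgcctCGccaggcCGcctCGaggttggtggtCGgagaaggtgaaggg
Magel2 (chr7:62376729-62377028, plus strand): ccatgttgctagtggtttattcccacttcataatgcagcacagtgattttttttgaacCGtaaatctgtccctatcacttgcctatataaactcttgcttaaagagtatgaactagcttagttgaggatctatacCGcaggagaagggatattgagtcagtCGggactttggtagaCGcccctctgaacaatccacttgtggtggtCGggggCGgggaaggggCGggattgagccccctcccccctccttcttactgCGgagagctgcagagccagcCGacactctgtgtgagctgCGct
The Dio3 window held 25 CpG and that of Magel2 10, compared with a median of 13 over the 41 windows of 27 members that matched by symbol and a median of 7 over 32851 windows of all genes.

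The remaining members had modest levels, and most of their intervals included 1. Asb4, a SOCS box protein, had 60.6 FPKM in the mutant and 66.5 FPKM in the control, a ratio of 0.912 (0.875 to 0.952). Zim1, a zinc finger protein, had 56.0 FPKM in the mutant and 60.5 FPKM in the control, a ratio of 0.925 (0.886 to 0.965). For Asb4 and Zim1 the interval lay below 1. The interval included 1 for Impact, a regulator of the translational stress kinase GCN2 (18.7 FPKM in the mutant and 19.6 FPKM in the control), and for Peg12, a relative of the GSK3-binding Frat proteins (13.6 FPKM in the mutant and 14.9 FPKM in the control). It also included 1 for Inpp5f, an inositol phosphatase (6.71 FPKM in the mutant and 6.64 FPKM in the control), for Usp29, a deubiquitinase family member (3.25 FPKM in the mutant and 3.43 FPKM in the control), and for Rtl1, derived from a retrotransposon (2.87 FPKM in the mutant and 3.16 FPKM in the control). Besides Igf2, Mest and Inpp5f, 4 measured members had higher values in the mutant. They were Sgce, the epsilon-sarcoglycan (13.5 FPKM in the mutant and 12.0 FPKM in the control), Snrpn, a spliceosomal protein (9.46 FPKM in the mutant and 8.37 FPKM in the control), Mkrn3, a RING finger protein (3.11 FPKM in the mutant and 2.70 FPKM in the control), and Zrsr1, a splicing factor relative (2.64 FPKM in the mutant and 2.22 FPKM in the control). Their ratios ran from 1.13 for Sgce to 1.19 for Zrsr1, and all 4 intervals included 1.

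By the locus column the 33 members fell into 14 places, of which 5 held several members within 3 Mb of each other. On chromosome 12 the 6 members from Dlk1 to Dio3 lay within 828 kb, and all 6 were lower in the mutant library, by 0.01 to 0.57 on the log2 scale, except that Meg3 was higher in estimated reads and Dlk1 in its highest row alone. The 5 members from Dlk1 to Mirg lay between −0.11 and −0.01, and Dio3, the farthest along, stood apart from them. Levels across this cluster ran from 3.16 FPKM for Rtl1 to 433 FPKM for Meg3 in the control library. On chromosome 7 the 5 members from Snrpn to Peg12 are all paternally expressed under a shared control region, and their ratios lay on both sides of 1. Ndn and Magel2, 27051 bases apart, were lower, whereas Mkrn3, the next gene 35952 bases further on, had a ratio of 1.15 (0.913 to 1.45) and Snrpn 1.13 (0.976 to 1.31). The log2 ratios in this cluster spread over 0.55, about as far as the 0.56 of the chromosome 12 cluster.

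The cluster from H19 to Phlda2 held the reciprocal pair of Igf2 and H19, which share enhancers and are expressed from opposite chromosomes. H19 stood at 1.65 times the level of Igf2 in the mutant and 1.77 times in the control library. Both intervals of these abundant genes excluded 1, in opposite directions. With quantile normalization both genes were exactly level, a value fixed by their equal ranks in the 2 libraries. Meg3 and Dlk1, the reciprocal pair of chromosome 12, had a level ratio of 1.97 in the mutant and 1.90 in the control. Airn, the antisense RNA that silences the paternal Igf2r, overlaps its span. Where their exons share bases, which was not checked, reads of Airn and Igf2r cannot be told apart without strand. Airn had 15.4 FPKM in the mutant and 14.1 FPKM in the control, a ratio of 1.09 (0.834 to 1.19), while its ratio in estimated reads was 0.995.

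**Figure D4:**
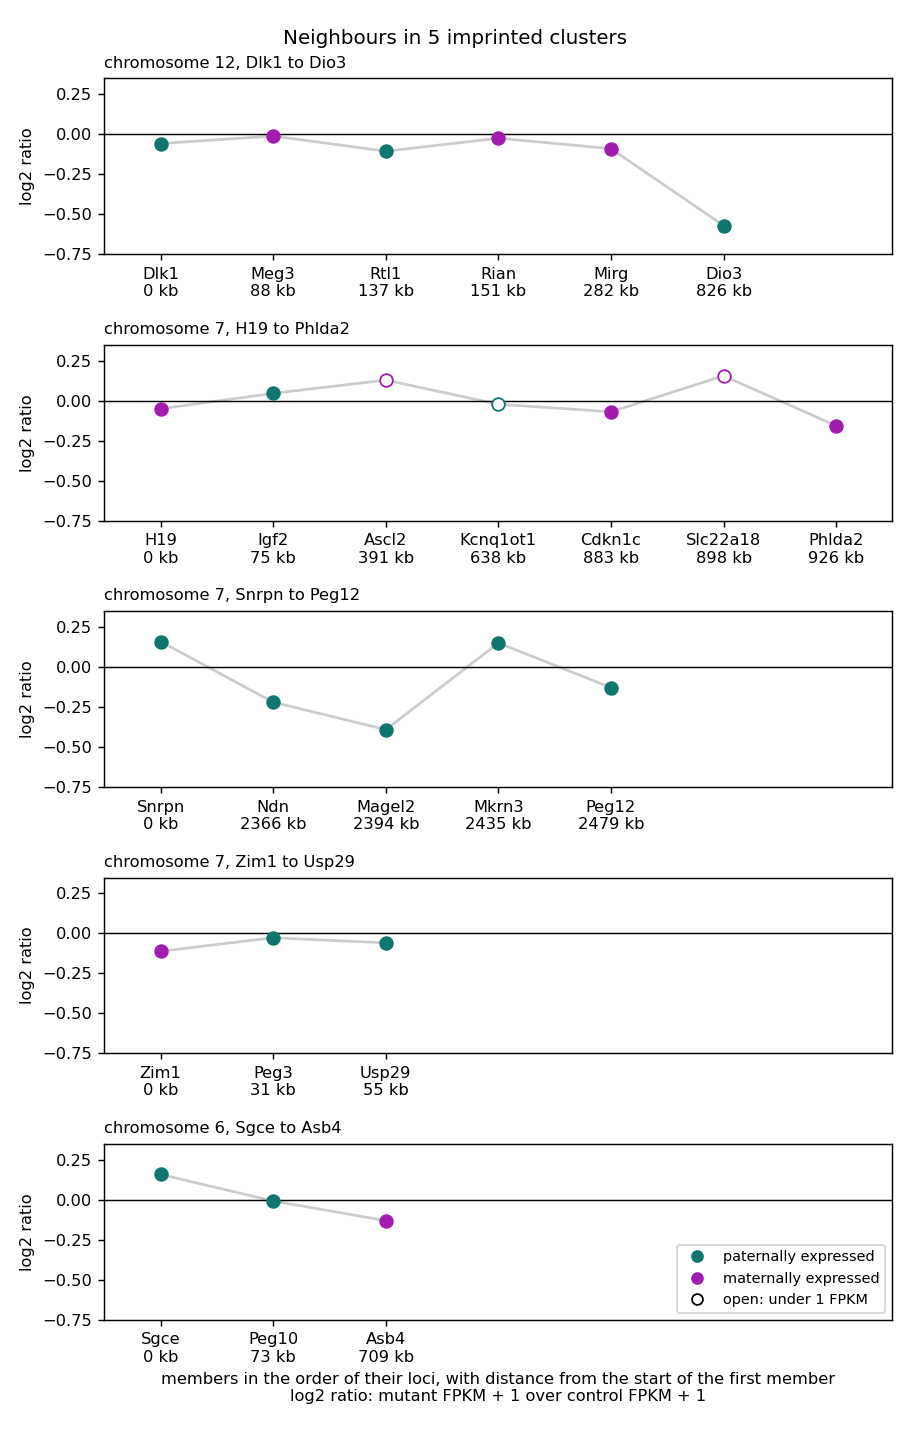
Log2 ratio (mutant FPKM plus 1 over control FPKM plus 1) of members in the order of their loci within 5 clusters, with the distance in kb from the first member's start under each name, filled points for measured members and open points for those under 1 FPKM. Dio3 lies apart from the 5 other members on chromosome 12, and the Snrpn to Peg12 cluster has members on both sides of 0.

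Some neighbours start close together and still differed widely in level. Peg3 and Usp29 run apart from starts that lie 321 bases from each other in mm9, yet Peg3 stood at 83.7 times the level of Usp29 in the mutant and 80.9 times in the control library. Peg10 and Sgce, with starts 101 bases apart, had level ratios of 14.2 in the mutant and 16.1 in the control. The Peg3 window is shown because 263 of its 300 bases also lie in the window of Usp29. Each CG is in capitals.
Peg3 (chr7:6730370-6730669, minus strand): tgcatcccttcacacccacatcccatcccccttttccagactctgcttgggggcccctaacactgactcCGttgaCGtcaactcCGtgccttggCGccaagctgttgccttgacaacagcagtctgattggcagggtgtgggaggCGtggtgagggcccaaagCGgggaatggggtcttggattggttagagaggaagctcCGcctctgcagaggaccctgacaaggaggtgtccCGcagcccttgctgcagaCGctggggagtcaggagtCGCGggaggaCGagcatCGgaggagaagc
This window held 13 CpG and the motif GGGGCCCC, which PLAGL1 is known to bind. With overlaps allowed, the motif was found in the windows of Peg3 and Usp29, where it is 1 shared site, and in no other of the 41 member windows (4.88% in all), while 1.08% of the windows of all genes held it. The motif TGCCGC, read by the imprint-keeping factor ZFP57, was found on either strand in 9 of the 41 windows (22%), and in 11.6% of all windows. TGCCGC itself holds a CpG, and the median CpG count was 13 in member windows and 7 in all windows. The part of CpG content in these shares was not tested. These matches describe the letters only, and the 41 windows include several per gene, some of which overlap.

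The transcript rows of the members with several starts showed which products made up these levels. Gnas, which encodes the stimulatory G protein alpha subunit, had 938 FPKM in the mutant and 989 FPKM in the control, a ratio of 0.949 (0.933 to 0.962). Its log2 ratio was −0.08 as deposited, 0.03 with quantile normalization and −0.14 from its highest row alone. Its 8 rows begin at 4 starts, in the order of the known promoters Nesp (maternal), XL (paternal), 1A (paternal) and Gs alpha (expressed from both copies in most tissues). The Gs alpha start had 451 FPKM in the mutant and 447 FPKM in the control, a ratio of 1.01 (0.988 to 1.03). The noncoding row at the third start had 456 FPKM in the mutant and 503 FPKM in the control, a ratio of 0.907 (0.886 to 0.928). Lower still were the small shares of the first start, with 22.3 FPKM in the mutant and 26.9 FPKM in the control, and of the second start, with 7.92 FPKM in the mutant and 11.7 FPKM in the control, at ratios of 0.826 (0.747 to 0.883) and 0.676 (0.591 to 0.733). These rows share most exons, so the authors' tool split their reads by estimation, which adds an error outside the counting interval. Among the rows of the second start, a transcript of 3759 nt had 2.02 FPKM in the mutant and 0.0351 FPKM in the control, and one of 3717 nt had 2.90 FPKM in the mutant and 8.45 FPKM in the control.

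Igf2, Grb10, Nnat and Dlk1 had 1 main row each, and several minor rows differed more than the main ones. The Igf2 row of 4038 nt held 70.2% of the gene's FPKM in the mutant and 69.6% in the control, with 980 FPKM in the mutant and 940 FPKM in the control, and that of 3691 nt had 392 FPKM in the mutant and 393 FPKM in the control. The third Igf2 row, of 3701 nt and the farthest upstream start, had 23.6 FPKM in the mutant and 17.9 FPKM in the control, a ratio of 1.32 (1.23 to 1.42). The main Nnat row of 1210 nt had a ratio of 0.892 (0.867 to 0.917), and the row of 1129 nt had 109 FPKM in the mutant and 146 FPKM in the control, a ratio of 0.749 (0.711 to 0.788). Dlk1 was mostly its row of 4339 nt, with 160 FPKM in the mutant and 156 FPKM in the control. A noncoding Dlk1 row of 4679 nt had 51.6 FPKM in the mutant and 63.4 FPKM in the control, a ratio of 0.815 (0.785 to 0.846). The summed level of Dlk1 was lower, while its main coding row as estimated had a ratio of 1.03 (1.002 to 1.05). The rows of each of these genes overlap, so their reads were split by estimation as for Gnas. That adds an error outside the counting interval, and differences between rows of a gene may lie within it.

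Grb10 offers the clearest pair of starts, because the 2 RefSeq windows lie 9449 bases apart, exactly as do the 2 row starts in mm9. In the mouse the upstream start gives the maternal transcript of most tissues, and promoters further downstream give paternal transcripts in neurons. The upstream row had 374 FPKM in the mutant and 382 FPKM in the control, a ratio of 0.979 (0.965 to 0.992). The downstream row stood at 18.7 FPKM in the mutant and 12.3 FPKM in the control, a ratio of 1.52 (1.41 to 1.63), and made up 4.76% of the gene in the mutant and 3.13% in the control. Whether this downstream row is one of those paternal transcripts was not tested. Since the 2 rows overlap, the split of reads between them is an estimate. The windows of both starts are shown with each CG in capitals.
Grb10 upstream (chr11:12037371-12037670, minus strand): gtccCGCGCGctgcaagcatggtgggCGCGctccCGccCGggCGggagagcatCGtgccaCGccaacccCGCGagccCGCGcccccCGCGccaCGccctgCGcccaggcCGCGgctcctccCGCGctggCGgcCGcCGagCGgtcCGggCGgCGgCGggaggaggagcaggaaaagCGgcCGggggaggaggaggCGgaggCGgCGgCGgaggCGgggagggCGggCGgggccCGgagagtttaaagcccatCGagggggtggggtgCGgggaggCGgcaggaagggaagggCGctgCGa
Grb10 downstream (chr11:12027922-12028221, minus strand): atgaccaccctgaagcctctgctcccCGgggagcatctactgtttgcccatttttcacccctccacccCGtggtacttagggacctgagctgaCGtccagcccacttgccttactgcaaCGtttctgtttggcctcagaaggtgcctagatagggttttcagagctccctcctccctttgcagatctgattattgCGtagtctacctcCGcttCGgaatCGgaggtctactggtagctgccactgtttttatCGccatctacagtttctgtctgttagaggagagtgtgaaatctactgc
The upstream window held 45 CpG, the highest count of the 41 member windows, and the downstream window held 9.

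**Figure D5:**
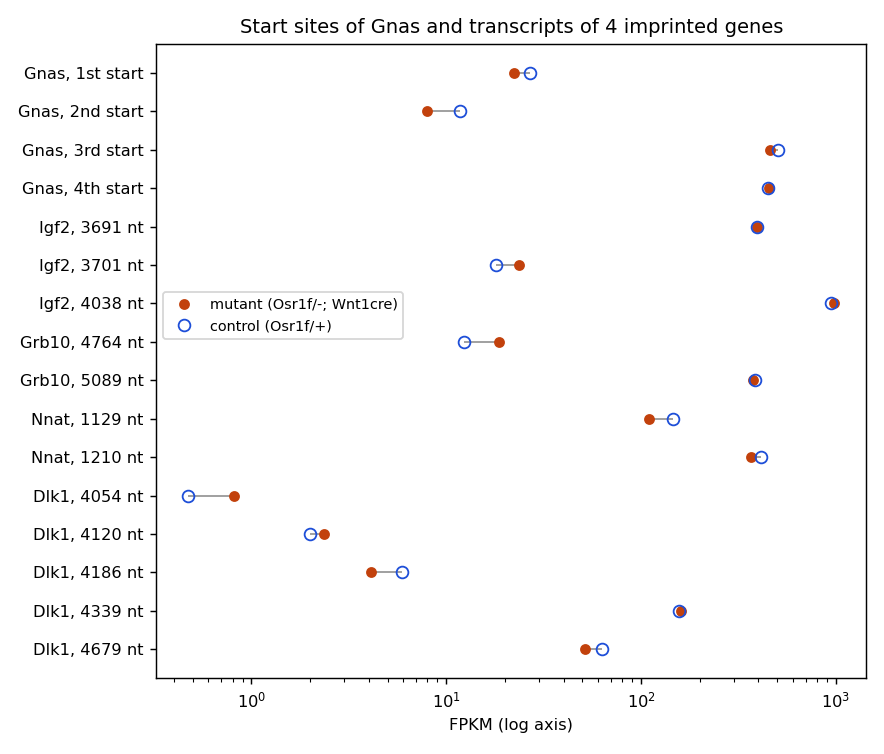
FPKM (log axis) at the 4 starts of Gnas and in each transcript row of Igf2, Grb10, Nnat and Dlk1, labelled by transcript length, with the mutant library as filled and the control library as open points. The main rows of Igf2, Grb10 and Dlk1 lie close together, while rows such as Grb10 of 4764 nt (18.7 FPKM in the mutant and 12.3 FPKM in the control) and Nnat of 1129 nt (109 FPKM in the mutant and 146 FPKM in the control) lie apart.

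Further imprinted genes were listed from general knowledge. Of 47 such genes 44 had a row and 31 were measured, with a median log2 ratio of 0.02, 18 higher and 13 lower. At least 1.2-fold higher were 2 of the 31, against 4.77% of all measured genes, and lower 3 of the 31, against 3.46%. With at least 5 FPKM in a library these were Ddc, an enzyme of dopamine and serotonin synthesis, with 3.28 FPKM in the mutant and 5.29 FPKM in the control, and Begain, a synaptic scaffold protein next to Dlk1, with 6.65 FPKM in the mutant and 8.65 FPKM in the control. Their ratios were 0.619 (0.497 to 0.771) and 0.769 (0.672 to 0.883). The other 3 had lower levels and were named after their values were seen. They were the homeobox gene Dlx5 (3.63 FPKM in the mutant and 1.62 in the control), Qpct (2.47 FPKM in the mutant and 1.49 FPKM in the control) and Ampd3 (1.92 FPKM in the mutant and 2.53 FPKM in the control). For Ddc and Begain, genes of neurons, the neuron markers given above were lower as well, and their part was not tested.

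The listed factors that establish or maintain imprints were close to level. Of 18 genes 16 were measured, 8 higher and 8 lower, with a median of −0.0018 and none past 1.2-fold. The counting interval lay below 1 for 3 of them, Trim28, Dnmt1 and Uhrf1, and above 1 for 0. Of all measured genes, whose median level was lower, 10.2% had it below 1 and 10.7% above. Zfp57, the zinc finger protein that finds methylated imprints, had 37.4 FPKM in the mutant and 37.0 FPKM in the control. Trim28, the corepressor it recruits, had 195 FPKM in the mutant and 207 FPKM in the control, a ratio of 0.944 (0.922 to 0.967). Dnmt1, the maintenance DNA methyltransferase, had 51.4 FPKM in the mutant and 54.6 FPKM in the control, a ratio of 0.942 (0.909 to 0.977). Ctcf, the insulator protein that separates Igf2 from its enhancers on the maternal copy, had 36.4 FPKM in the mutant and 37.6 FPKM in the control, with an interval of 0.919 to 1.02. Uhrf1, the partner of Dnmt1, had the largest difference of the list, with 54.2 FPKM in the mutant and 62.8 FPKM in the control. Its ratio was 0.864 (0.833 to 0.908), and it was named after its values were seen.

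Of 12 genes listed around IGF2 (receptors, adaptors, IGF-binding proteins and the Igf2bp genes) none passed 1.2-fold. Igf2bp1, Igf2bp2 and Igf2bp3 encode RNA-binding proteins and are not steps of IGF2 signalling. All 12 were measured, 5 higher and 7 lower, with a median log2 ratio of −0.05. The counting interval lay below 1 for 4 of them and above 1 for 2. Of all measured genes, whose median level was lower, 10.2% had it below 1 and 10.7% above. Igf2bp1 and Igf2bp3, also named after their values were seen, were among the 4. Named after their values were seen, the lowest and highest ratios were those of Irs1, an adaptor of the IGF and insulin receptors, at 0.901 (0.852 to 0.952), and Igfbp3, an IGF-binding protein, at 1.16 (1.103 to 1.22). Igf1r, the signalling receptor of IGF2, had 20.0 FPKM in the mutant and 20.0 FPKM in the control, with an interval of 0.962 to 1.04. Insr, the insulin receptor, had 9.21 FPKM in the mutant and 9.78 FPKM in the control, a ratio of 0.942.

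Inside the 5 clusters lay 91 further symbols, of which 71 were microRNA models of 61 to 124 nt. Of these 50 were listed at 0 in both libraries, and FPKM of models this short is unreliable. At least 1 FPKM was reached by 28 of the further symbols, and 24 of these also had status OK in all rows. Of the 24, 13 had at least 200 nt, and their median log2 ratio was 0.01. The 4 without that status were microRNA models, among them Mir675 inside H19, listed at 1450 FPKM in the mutant and 1432 FPKM in the control, which was named after its values were seen. With at least 5 FPKM, 6430411K18Rik, a model that overlaps Rtl1, had 5.36 FPKM in the mutant and 3.51 FPKM in the control, a ratio of 1.53 (1.17 to 2.01). The microRNA model Mir3072 had 16.3 FPKM in the mutant and 11.2 FPKM in the control from about 31 reads in the mutant and 17 in the control, with an interval of 0.799 to 2.87. Of the 30 measured members 13 overlap the span of another gene model, introns included, among them H19, Igf2, Nnat, Mest and Meg3. Where exons are shared, the split of reads between models is uncertain, and shared exons were not checked.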

How the data were processed

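Total RNA of pooled embryonic tongues was made into cDNA with an amplifying NuGEN kit and sequenced, per the labels' protocols. TopHat 1.4.1, Bowtie 0.12.7 and build mm9 are listed in the submitters' processing notes. Per the file headers, the authors deposited FPKM per RefSeq transcript, with a coverage signal not scaled for depth. For Cufflinks, the version was not given in the sources used here, nor whether strand was used. FPKM was summed per symbol. Measured genes had at least 1 FPKM in either library and status OK in all rows. The log2 ratio used a pseudocount of 1, which understates differences of low genes. Coverage times length, divided by 47.4 bases per read (the median of the lowest step in single-row genes of at least 1000 nt), gave approximate reads, and exact conditional (Clopper-Pearson) 95% intervals followed. Amplified reads are not independent molecules. The interval script was tested only on simulated independent counts, which the interval assumes, so amplification and the split of reads between rows were not covered. Locus starts were made 1-based. Every measured member was named, and from the other lists genes past 1.2-fold at 5 FPKM or more, up to 6 a list, with Igf1r, Insr, Dnmt1, Trim28, Zfp57 and Ctcf. Members and lists were chosen with earlier results of these data known. Promoter windows are RefSeq's on GRCm38.p6. Python 3.11.15, pandas 2.3.3, numpy 2.4.6 and scipy 1.17.1 were used. Alternatives covered pseudocount, scale, filters, rows and overlaps.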

Additional observations from a re-analysis of the deposited data

How the results depend on the processing

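No paired analysis was possible because each genotype had 1 library, and no replicate could be left out. The median log2 ratio of the measured members ran from −0.07 to −0.04 over 11 alternatives, and no alternative put a member past 1.2-fold higher. Of the members lower by 1.2-fold, 1 remained with a minimum of 5 FPKM, which Dio3 does not reach. The median of maternally expressed members was −0.0362 with quantile normalization, −0.0369 with no filter on low values and −0.11 over the 5 members with no overlapping gene model. Without overlapping models, the difference of paternal and maternal medians was 0.0513. It ran from −0.02 to 0.0513 over 13 alternatives and was below 0 in 5 of them, so it had no stable sign. Of 210 single-member values under 7 settings, 197 moved by less than the half-width of their counting interval on the log2 scale and 13 by more, and 0 reversed Dio3 or Magel2. For genes inside clusters, leaving out models under 200 nt was chosen after the data were seen and gave a median of 0.01, against 0.13 with them. Among members under 5 FPKM, values that rest on few reads are limited by depth. Phlda2 had about 39 reads in the mutant and 37 in the control, whereas the long Kcnq1ot1 had about 1295 in the mutant and 1097 in the control.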
